A study of Mus musculus with 4 samples.

Results

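Ribosome biogenesis factors are the proteins that build ribosomes in the nucleolus and are not themselves part of the finished ribosome. Here they are the protein-coding genes whose symbols belong to the Nop, Nol, Utp, Rrp, Polr1, Tsr and Gnl series, together with Imp3, Imp4, Wdr12, Wdr36, Wdr43, Wdr75, Bop1, Pes1, Fbl, Ncl, Npm1, Dkc1, Gar1, Nhp2 and Bms1. By name, the symbol rule found 67 of the 18200 genes in the table. The factors and the gene lists below were chosen with earlier results of these data known. The study sequenced RNA from polysomes, the messenger RNAs that carry several ribosomes, of mouse ADSCs, a cell type that the series title places among mesenchymal stem cells. All 4 libraries came from cells labelled WT. In 2 libraries the cells had received a scrambled control, and in 2 an shRNA against Ifit1 (labelled IFIT1 knockdown), and the replicate number is also the labelled batch, 1 or 2. Total RNA was not among the libraries, so a difference in the amount of a messenger RNA and a difference in its loading with ribosomes cannot be told apart, nor can fewer cells of a type and less RNA per cell.

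Ribosome assembly starts when RNA polymerase I copies the ribosomal DNA into a long precursor. Small nucleolar ribonucleoproteins (snoRNPs) then guide chemical changes on it, box C/D particles adding methyl groups to ribose and box H/ACA particles making pseudouridine. A large early complex, the small subunit processome, folds and cuts the part that becomes the small subunit. A second set of factors matures the large subunit. Growing and dividing cells need much of this machinery, and the transcription factor Myc is known to activate many of its genes.

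The labels were checked first. Ifit1, the targeted gene, had 1.93 and 1.91 FPKM (fragments scaled to gene length and library depth) in the scrambled libraries and 13.9 and 14.8 in those labelled knockdown. Its level thus ran opposite to the label, and "higher" and "lower" below describe the libraries that carry the knockdown label, relative to the scrambled ones. Whole fragment numbers, recovered from the steps of the values, summed to between 27639397 and 33619435 per library. Of 12 markers of mesenchymal stromal cells, 8 had a mean of at least 1 FPKM, of which 6 were higher (Thy1, Ly6a, Eng, Vcam1, Cd44 and Itgb1) and 2 lower (Col1a1 and Col1a2) in the libraries labelled knockdown. Thy1 rose 8.29-fold and Col1a2, the most abundant, fell 2.94-fold, and Nt5e reached 0.0347 FPKM at most. Summed, these markers came to 161.9 and 162.8 FPKM in the scrambled libraries and 137.8 and 137.9 in the others. Of 8 markers of epithelium and mesothelium, whose sums were 169.0 and 165.1 against 101.8 and 102.7 FPKM, the abundant Krt19 fell 1.78-fold, Krt7, Krt8 and Krt18 rose 3.25-fold, 9.14-fold and 6.15-fold from levels below 1 FPKM, Msln did not pass, and Epcam, Cdh1 and Upk3b were near 0. Among 3 matched endothelial markers Egfl7 rose 2.79-fold (sums 1.69 and 1.61 against 4.7 and 4.47 FPKM) and Pecam1 and Tek were near 0. Among 4 matched leukocyte markers Cd14 rose 1.15-fold, Coro1a fell 1.26-fold (sums 8.94 and 8.89 against 8.85 and 9.0 FPKM) and Lyz2 and Csf1r were near 0. Among 3 matched fat cell markers Pparg and Fabp4 fell (sums 5.65 and 5.67 against 2.43 and 2.48 FPKM) and Plin1 was near 0. The 3 mostly nuclear RNAs summed to 1.93 and 1.92 against 0.929 and 0.953 FPKM. The part of these markers in the results below was not tested. The labels do not say whether the replicates came from separate cultures. The p-values therefore reflect library-to-library spread alone, part of which may be technical. For some factors, Polr1a and Nol8 among them, the standard error was below the error expected from counting the recovered fragments. Their p-values may therefore be too small. Calls of the factors stayed the same with standard errors held at or above the counting error.

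The libraries also did not group by batch. Across the 63 tested factors, the difference between replicates 1 and 2 of the scrambled libraries ran opposite to that of the libraries labelled knockdown (Pearson's r -0.99, a description across genes that share 4 libraries). Of the summed squared deviations of these factors, 91.3% lay between the groups and 8.67% between the pair scrambled 1 with knockdown 2 and the pair scrambled 2 with knockdown 1. Only 0.0415% lay between the batches. In the plot of replicate differences the factors sit on one falling diagonal. For 7 factors, Polr1d, Polr1h, Dkc1, Nop10, Pes1, Rrp1 and Imp4, each library was within 5% of the other-numbered library of the other group although the scrambled replicates were at least 1.1-fold apart. That held for 16.0% of all tested genes, and its cause was not tested.

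**Figure D1:**
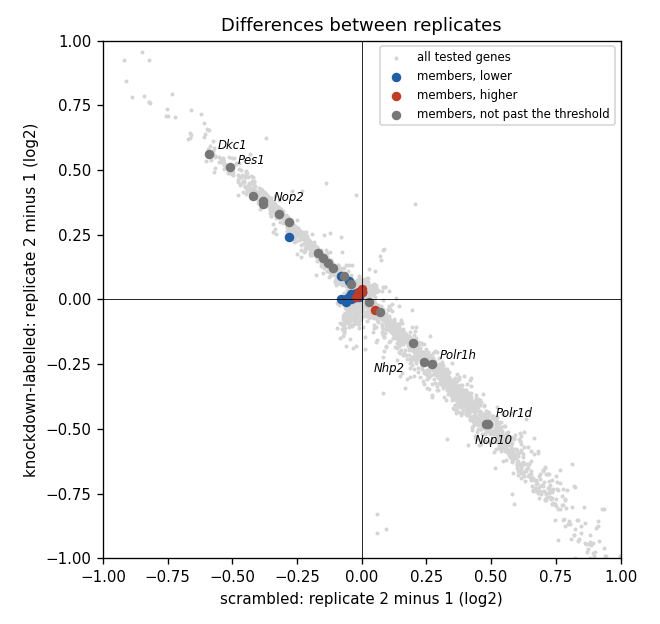
Difference between replicate 2 and replicate 1 on the log2(FPKM + 1) scale, in the scrambled libraries (horizontal) and in those labelled knockdown (vertical), for all tested genes (light grey) and the 63 tested factors (coloured by their call between groups). Dkc1 and Pes1 lie at the upper left, Polr1d and Nop10 at the lower right, and the factors called lower or higher lie near the centre, apart from Ncl at -0.28 and 0.24.

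Most factors were lower in the libraries labelled knockdown. A gene was tested where its mean over the 4 libraries reached 1 FPKM, which 63 of the 67 factors did, and called where limma's adjusted p was below 0.05 on log2(FPKM + 1). Of the 63, 37 were lower, 6 were higher and 20 did not pass. Among all 8750 tested genes 41.2% were lower and 27.4% were higher, against 58.7% of the factors lower. The median log2 change of the factors was -0.42 (-0.46 in batch 1 and -0.41 in batch 2). Beside it, the median of all tested genes was -0.02 (-0.13 in batch 1 and -0.22 in batch 2). At least 1.5-fold lower were 23 factors (25.9% of all tested genes), and at least 2-fold lower were 9 (9.29% of all tested genes). The values of 41 factors in both libraries labelled knockdown were below those in both scrambled libraries (44.4% of all tested genes), and those of 8 were above (30.1%). Summed over the 67 factors, FPKM came to 5209 and 5143 in the scrambled libraries and 4246 and 4253 in those labelled knockdown. The table's own gene ontology terms place 51 of the 67 in the nucleolus, against 4.1% of all its genes, and give 62 a term on ribosomal RNA, preribosomes, RNA polymerase I or a ribosomal subunit. Without the 4 members outside assembly by their known roles (Nol3, Nol4, Nol4l and Polr1has), 37 of 61 tested were lower and 5 higher.

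**Figure D2:**
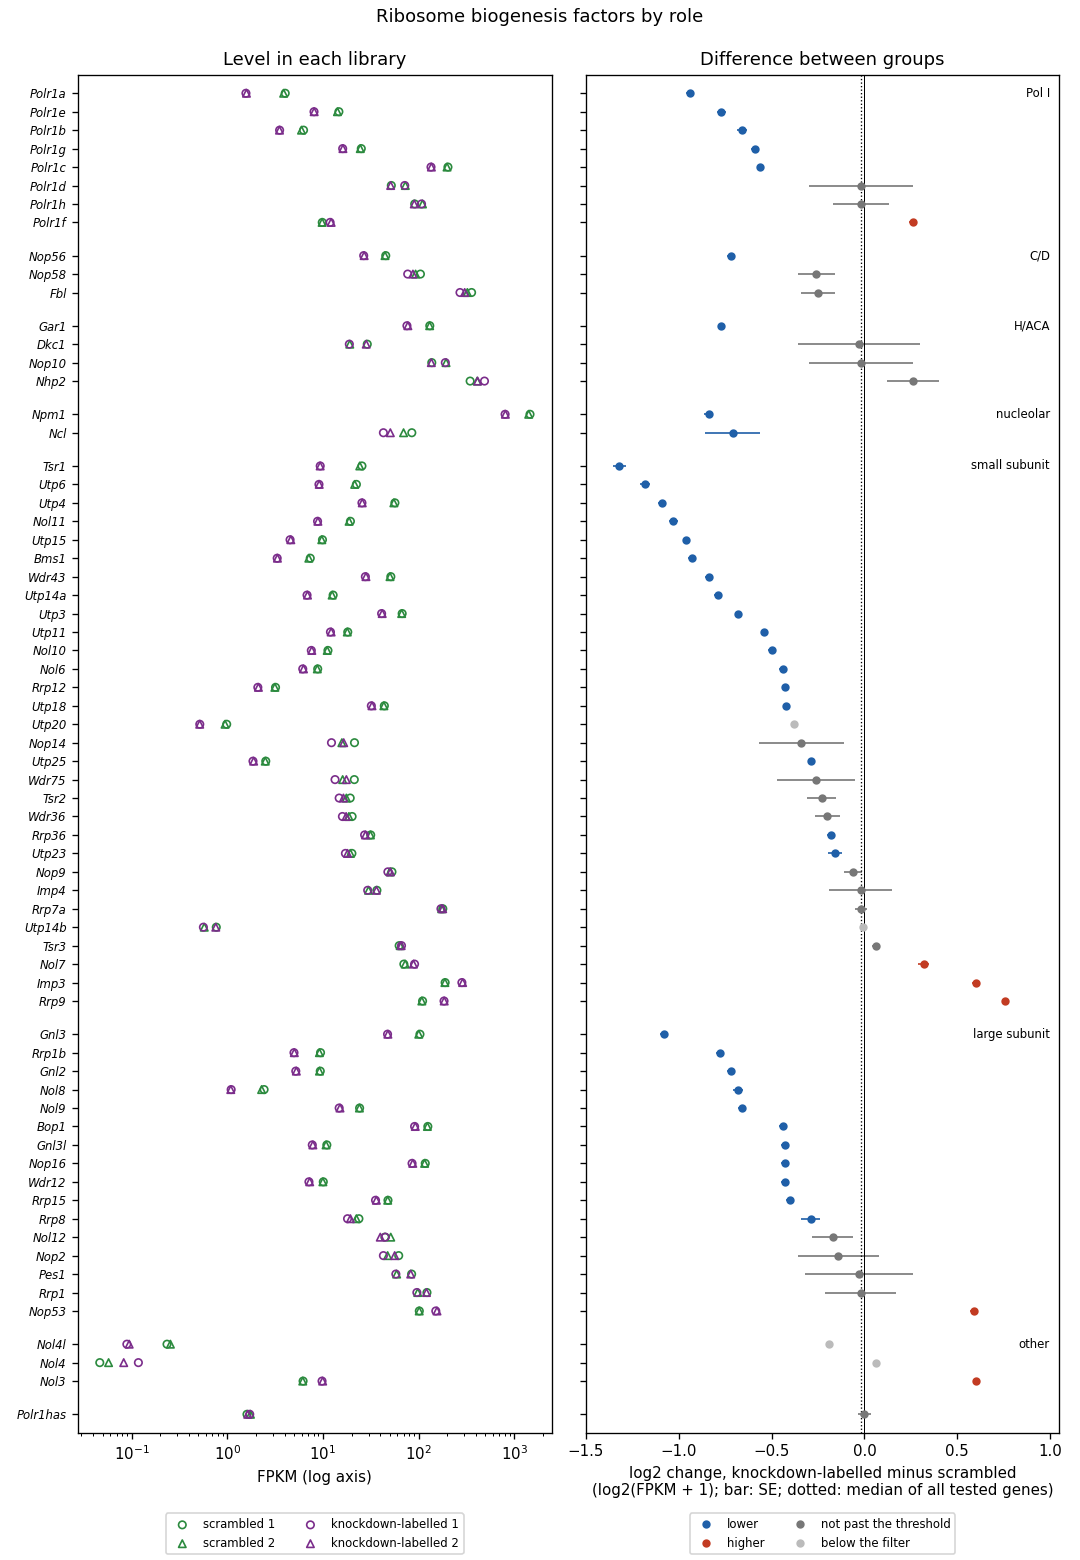
Left, FPKM of the 67 factors in each library (log axis), ordered by role and by change. Right, log2 change with its standard error, coloured by the call, with the median of all tested genes as a dotted line: 37 factors lie to the left as lower and 6 to the right as higher, and the widest bars belong to factors such as Dkc1, Polr1d and Pes1, whose replicates were far apart.

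Since many of these genes were lower together, their promoters were searched for a pair of short motifs, CACGTG, an E-box that Myc can bind, and CCGGAAG, a core that ETS factors can bind, each on both strands and with no overlap between them. RefSeq promoters (GRCm38.p6, 250 bases before to 50 after a start) were matched for 52 of the 67 factors, 63 promoters in all. CACGTG was present in 25.4% of these promoters, against 10.5% of the promoters of tested genes and 7.15% of all 32851 promoters in the reference. CCGGAAG was present in 27.0%, against 20.4% and 8.86%. The E-box was in 9 of 36 promoters of factors that were lower, in 5 of 19 of those that did not pass and in 0 of 4 of those that were higher. CCGGAAG was in 13 of 36, 3 of 19 and 1 of 4. Some genes have several overlapping promoters, so 1 motif can be counted more than once. Counted by gene in the same order, the E-box was in 7 of 28, 5 of 17 and 0 of 4. By gene, CCGGAAG was in 12 of 28, 3 of 17 and 1 of 4. A match is a description of letters and says nothing about binding. The 130 bases before the start are shown for some factors of each call, with either motif on either strand in capitals. Nol11, Utp18 and Gar1 were lower, Nop2 and Imp4 did not pass, and Rrp9, which holds neither motif, was higher. Not shown are lower factors with neither motif, such as Gnl3, Polr1a and Nop56, and the higher factor Nol7, which holds CCGGAAG.
Nol11 (chr11:107189382-107189511, minus strand): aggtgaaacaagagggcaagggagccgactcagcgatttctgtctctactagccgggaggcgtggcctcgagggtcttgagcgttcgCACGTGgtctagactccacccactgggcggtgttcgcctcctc
Utp18 (chr11:93885767-93885896, minus strand): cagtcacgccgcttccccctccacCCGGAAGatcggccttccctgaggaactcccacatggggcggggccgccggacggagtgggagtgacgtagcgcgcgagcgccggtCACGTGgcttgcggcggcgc
Gar1 (chr3:129831397-129831526, minus strand): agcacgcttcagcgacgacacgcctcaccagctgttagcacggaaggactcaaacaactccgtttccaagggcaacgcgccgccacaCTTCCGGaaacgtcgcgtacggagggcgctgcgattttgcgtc
Nop2 (chr6:125131753-125131882, plus strand): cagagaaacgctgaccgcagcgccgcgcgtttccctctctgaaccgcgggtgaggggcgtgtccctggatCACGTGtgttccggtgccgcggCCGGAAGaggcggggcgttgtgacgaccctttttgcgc
Imp4 (chr1:34439699-34439828, plus strand): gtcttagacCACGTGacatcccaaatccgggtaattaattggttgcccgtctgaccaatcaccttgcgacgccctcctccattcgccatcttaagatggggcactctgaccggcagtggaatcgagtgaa
Rrp9 (chr9:106477179-106477308, plus strand): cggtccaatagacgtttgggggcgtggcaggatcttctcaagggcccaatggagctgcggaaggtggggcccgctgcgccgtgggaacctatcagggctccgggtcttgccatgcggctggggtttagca
Counted from the start, the E-box begins at base -43 in Nol11, -20 in Utp18, -60 in Nop2 and -121 in Imp4.

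Of the 8 subunits of RNA polymerase I with a Polr1 symbol, 5 were lower, 1 was higher and 2 did not pass. Subunits with other symbols fall outside the rule. Those shares, 62.5% lower and 12.5% higher, stand beside 41.2% and 27.4% of all tested genes. Polr1a, the largest and catalytic subunit, had 4.04 and 3.89 FPKM in the scrambled libraries and 1.57 and 1.59 in those labelled knockdown. The groups did not overlap, and the means of 3.96 ± 0.108 and 1.58 ± 0.0106 (SD, n = 2) were 2.51-fold apart (log2 -0.94, SE 0.023, limma adjusted p = 0.00016). Polr1b, the other subunit that forms the active centre, fell from 6.28 and 5.98 to 3.53 and 3.52 FPKM. Polr1e and Polr1g, which form a dimer on the enzyme's surface, fell from 14.7 and 14.2 to 8.08 and 8.11 FPKM and from 25.2 and 24.6 to 16.1 and 16.2. Polr1c was the most abundant of these 8 and is shared with RNA polymerase III. It fell from 202.8 and 198.4 to 134.9 and 136.2 FPKM, 1.48-fold. Polr1f, of the stalk that meets the initiation factor Rrn3, was the subunit among these 8 that rose. It went from 9.85 and 9.82 to 11.9 and 12.2 FPKM (log2 0.26, limma adjusted p = 0.0013).

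The remaining Polr1 subunits, Polr1d, also shared with RNA polymerase III, and Polr1h, which helps the enzyme to cleave RNA, were split by replicate and not by group. Polr1d had 51.9 and 72.7 FPKM in the scrambled libraries and 71.7 and 51.1 in those labelled knockdown. Polr1h had 91.1 and 109.9 FPKM against 107.4 and 90.2. For both, library 1 labelled knockdown stood beside library 2 labelled scrambled and the reverse, so the log2 changes of -0.02 each carry standard errors of 0.28 and 0.15. These intervals are wide, and the miss does not show that the groups were alike. Polr1has, listed as protein coding and named as the antisense partner of Polr1h, had 1.61, 1.75, 1.72 and 1.64 FPKM in the same order of libraries. No source used here says whether counting used strand, so reads of Polr1h and Polr1has cannot be told apart.

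In each snoRNP core 1 protein was lower and the others did not pass. Nop56, a scaffold of box C/D particles, fell from 45.4 and 44.6 to 26.7 and 27.0 FPKM (1.68-fold, limma adjusted p = 0.00017). Fbl, the methyltransferase of these particles, had 358.2 and 323.5 FPKM in the scrambled libraries and 271.0 and 303.4 in those labelled knockdown. Its groups did not overlap, yet its change differed between batches (log2 -0.40 in batch 1 and -0.09 in batch 2). The change did not pass (limma adjusted p = 0.099). After quantile normalization Fbl was called lower (log2 -0.40, limma adjusted p = 0.036). With a trend of gene length removed, described below, it was also called lower (log2 -0.53, limma adjusted p = 0.046). Nop58, the partner of Nop56, had 104.6 and 93.1 FPKM against 77.0 and 87.3 (limma adjusted p = 0.11). In all 3, the value in library 1 labelled knockdown was the lowest.

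Among box H/ACA proteins, Gar1 fell from 131.0 and 130.6 to 75.6 and 77.3 FPKM, a 1.71-fold difference (log2 -0.77, SE 0.021, limma adjusted p = 0.00017). The enzyme itself, the pseudouridine synthase Dkc1, had 29.1 and 19.1 FPKM in the scrambled libraries and 18.9 and 28.4 in those labelled knockdown. Nop10, its small partner, had 137.4 and 193.8 FPKM against 190.4 and 136.0. Both therefore repeat the crossed pattern of Polr1d, but in opposite senses: scrambled 1 was the higher library for Dkc1 and the lower one for Nop10. Nhp2, which binds the guide RNA, was the only one of the 4 with both libraries labelled knockdown above both scrambled ones, at 345.9 and 410.0 FPKM against 488.6 and 414.0. It did not pass (log2 0.26, limma adjusted p = 0.22). After centring each library on its median, Nhp2 was called higher (log2 0.43, limma adjusted p = 0.034).

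Both major nucleolar proteins were lower, as were 41.2% of all tested genes. Npm1, an abundant chaperone of ribosome assembly and the factor with the highest level, had 1461 and 1416 FPKM in the scrambled libraries and 802.3 and 807.7 in those labelled knockdown. Averages of 1439 ± 31.7 and 805.0 ± 3.79 (SD, n = 2) were 1.79-fold apart (log2 -0.84, SE 0.025, limma adjusted p = 0.00019), and Npm1 alone makes up most of the fall in the summed FPKM. Npm1 is known to have processed pseudogenes, and the treatment of reads that match several genes is not stated. Ncl, or nucleolin, which binds nascent ribosomal RNA, had 85.0 and 69.7 FPKM against 42.9 and 50.7. The change of Ncl (log2 -0.71) had a limma adjusted p of 0.025. Blocking on batch gave 0.08, and leaving out scrambled 1, knockdown 1 or knockdown 2 gave 0.067, 0.13 and 0.074. With a trend of gene length removed, described below, the change was -0.23.

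Assembly factors of the small subunit made up the largest group, and the largest decreases were among them. Of 28 tested, 17 were lower, 3 were higher and 8 did not pass, with a median log2 change of -0.38. As shares, 60.7% were lower and 10.7% higher, beside 41.2% and 27.4% of all tested genes. Tsr1, a GTPase-like protein on late small-subunit precursors, had 25.6 and 24.3 FPKM in the scrambled libraries and 9.38 and 9.37 in those labelled knockdown. They differed 2.66-fold in their means, the largest fall of any tested factor (log2 -1.32, SE 0.034, limma adjusted p = 0.00017). Utp6 fell from 22.4 and 21.5 to 9.10 and 9.16 FPKM, 2.41-fold, the next in this group. It belongs to UtpB, a building block of the processome that packs against the U3 snoRNA. Among the factors matched by the rule, the other members of UtpB moved less. Utp18 fell 1.35-fold, and Wdr36 did not pass at 20.2 and 18.7 against 16.0 and 17.5 FPKM. UtpB members with other symbols are not covered by this comparison.

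UtpA, the block that binds the precursor first, had 4 of its 5 members here lower, beside 41.2% of all tested genes. Utp4 fell from 56.6 and 55.2 to 25.6 and 25.8 FPKM, 2.17-fold. Nol11 fell from 19.4 and 18.8 to 8.80 and 8.87 FPKM and Utp15 from 9.90 and 9.74 to 4.54 and 4.62. These 3 were each more than 2-fold lower, beside 9.29% of all tested genes that were at least 2-fold lower. Wdr43 fell 1.81-fold, from 51.3 and 50.3 to 27.8 and 28.2 FPKM. The exception was Wdr75, with 21.3 and 16.1 FPKM against 13.4 and 17.6, where scrambled 2 was below knockdown 2 and the groups overlapped (limma adjusted p = 0.41). The GTPase Bms1, which acts later in the same complex, fell from 7.38 and 7.13 to 3.33 and 3.35 FPKM. Utp14a, the activator of the helicase Dhx37, fell 1.84-fold and Utp3 fell 1.62-fold. Utp11, Nol10, Nol6 and Rrp12 fell between 1.42-fold and 1.51-fold. Utp25 fell 1.34-fold (log2 -0.29), a call that was lost after centring each library on its median (-0.12, limma adjusted p = 0.056) and that turned to a higher call with the trend of gene length removed (0.09, adjusted p = 0.0081). The smallest decreases that passed were those of Rrp36 (log2 -0.18) and Utp23 (log2 -0.16). Utp23 no longer passed in limma when batch was a block (adjusted p = 0.12) or after that centring (0.81). The same held with no filter (0.051), after quantile normalization (0.6) and with the trend of gene length removed (0.47). Nor did Utp23 pass when any 1 library was left out (log2 -0.19 to -0.12). Rrp36 no longer passed without scrambled 1 (0.055) or after that centring (0.84).

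Small-subunit factors that rose were Rrp9, Imp3 and Nol7. Rrp9, a protein of the U3 snoRNP, had 110.1 and 108.2 FPKM in the scrambled libraries and 184.6 and 185.4 in those labelled knockdown. This was the largest rise among the factors, 1.69-fold (log2 0.76, SE 0.019, limma adjusted p = 0.00016). Imp3, which sits with U3 in a trio with Imp4 and Mphosph10, rose from 189.6 and 188.5 to 283.6 and 288.7 FPKM. Its partner Imp4 did not pass and was crossed, at 36.7 and 30.0 FPKM against 29.4 and 36.3. Nol7 rose 1.26-fold. Of the others that did not pass, Nop14 had 21.4 and 15.8 FPKM against 12.3 and 16.5, Tsr2, a chaperone of a small-subunit protein, had 19.3 and 17.6 against 14.8 and 16.4, and Nop9 had 52.7 and 50.3 against 47.8 and 50.9. The abundant Rrp7a spanned only 171.4 to 179.2 FPKM over the 4 libraries, the narrowest relative range among the tested small-subunit factors. Tsr3, which modifies the small-subunit RNA, spanned 62.7 to 66.3 FPKM.

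Of 16 large-subunit factors, 11 were lower, 1 was higher and 4 did not pass, with a median log2 change of -0.43. As shares, 68.8% were lower and 6.25% higher, beside 41.2% and 27.4% of all tested genes. Gnl3, or nucleostemin, a nucleolar GTPase of proliferating stem cells, had 103.4 and 100.5 FPKM in the scrambled libraries and 47.4 and 47.8 in those labelled knockdown. It was 2.14-fold lower (log2 -1.08, SE 0.023, limma adjusted p = 0.00016). Its relatives Gnl2 and Gnl3l fell 1.77-fold and 1.39-fold. Nol8, at a low level, fell from 2.43 and 2.29 to 1.1 and 1.09 FPKM. Rrp1b fell 1.86-fold, and Nol9, the kinase that acts on the cut spacer between large-subunit RNAs, fell 1.62-fold. Nop16 and Rrp15 fell 1.35-fold and 1.33-fold. Rrp8, a methyltransferase, fell 1.23-fold (limma adjusted p = 0.017). That call was lost in the block fit (0.068), after median centring (0.22), after quantile normalization (0.059) and with the trend of gene length removed (0.098). It was lost too without scrambled 1 (log2 -0.25) or knockdown 1 (log2 -0.24).

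The trimeric PeBoW complex was not uniform. Bop1 fell from 125.0 and 123.7 to 90.9 and 92.4 FPKM, and Wdr12 fell 1.40-fold, to 7.15 and 7.28. With the trend of gene length removed, Wdr12 passed as higher instead (log2 0.09, SE 0.013, limma adjusted p = 0.011). Their partner Pes1 had 84.6 and 59.0 FPKM in the scrambled libraries and 57.9 and 82.8 in those labelled knockdown. Pes1 thus differed more between replicates than between groups (log2 -0.03, SE 0.29). Rrp1 was split the same way, with 122.4 and 98.0 FPKM against 96.0 and 121.0. Nop2, the large-subunit RNA methyltransferase, had 62.0 and 47.5 FPKM against 42.9 and 56.3, and Nol12 had 44.5 and 51.2 against 44.9 and 39.8. Nop53, which brings the RNA-trimming exosome to the large-subunit precursor, was the large-subunit factor that rose. It had 101.8 and 101.6 FPKM in the scrambled libraries, and its 151.4 and 155.8 in those labelled knockdown were 1.51-fold higher (log2 0.59, limma adjusted p = 0.00027).

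Besides Polr1has, 3 names matched by the rule stand for proteins that are not known as assembly factors. Nol3, an inhibitor of apoptosis, rose from 6.21 and 6.16 to 9.80 and 9.95 FPKM, the remaining of the 6 increases. Nol4 and Nol4l were below the filter, with at most 0.118 and 0.255 FPKM. Also below it were Utp20, a very large processome protein, with 0.988 and 0.95 FPKM against 0.517 and 0.516, and Utp14b, a retrocopy of Utp14a that can share its reads, with 0.769 and 0.576 against 0.564 and 0.760. These 4 were not tested.

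The wider pathway moved in the same direction. Of 101 other ribosome biogenesis genes listed, 98 were tested, of which 67 were lower, 9 were higher and 22 did not pass. As shares, 68.4% were lower and 9.18% higher, beside 41.2% and 27.4% of all tested genes. The median log2 change of these 98 was -0.49 (-0.56 in batch 1 and -0.47 in batch 2). It stood beside -0.42 for the factors above and -0.02 for all tested genes (-0.13 in batch 1 and -0.22 in batch 2). The cumulative plot shows the curves of both lists to the left of all tested genes over most of the range. The largest decreases were in the large-subunit factor Mak16 (50.3 in both scrambled libraries, 19.0 and 19.5 FPKM in those labelled knockdown), the helicases Ddx47 and Ddx21, Heatr3, and the nucleolar phosphoprotein Nolc1, with log2 changes of -1.34, -1.21, -1.14, -1.14 and -1.05. The largest increases were in the exosome subunit Exosc5 (42.5 and 41.5 against 77.8 and 77.1 FPKM), Taf1d, of the RNA polymerase I promoter factor, Nip7, Wdr18 and Exosc4, with log2 changes of 0.87, 0.78, 0.41, 0.40 and 0.37. The count of higher genes was 5 without scrambled 1 and 5 without scrambled 2.

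**Figure D3:**
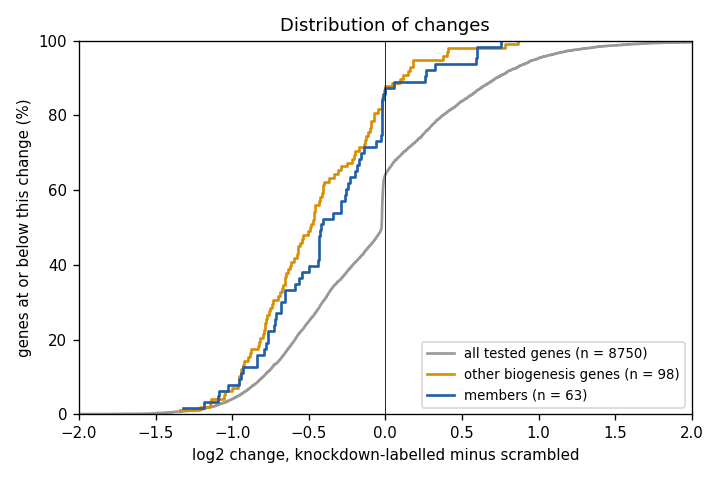
Share of genes (vertical axis, %) at or below each log2 change (horizontal axis) for the 63 tested factors, 98 other biogenesis genes and 8750 tested genes. The medians are -0.42, -0.49 and -0.02, and the step of the grey curve just below 0 holds genes with changes near -0.02.

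Most of the tested upstream regulators and of the tested markers of dividing cells were lower in the same libraries. Myc had 55.2 and 55.5 FPKM in the scrambled libraries and 27.0 and 27.6 in those labelled knockdown (log2 -0.99, limma adjusted p = 0.00016). Its partner Max, the growth regulator subunit Rptor, the kinase Rps6kb1 and Trp53 also fell, by 0.41, 0.56, 0.16 and 0.60 on the log2 scale. Mxd4 did not pass, so 5 of 6 tested regulators were lower (83.3%, beside 41.2% of all tested genes). Of 11 tested markers of dividing cells, 7 were lower, 1 was higher and 3 did not pass. As shares, 63.6% were lower and 9.09% higher, beside 41.2% and 27.4% of all tested genes. Tpx2 fell from 41.1 and 39.4 to 14.0 and 14.2 FPKM, while the abundant Pcna rose from 776.3 and 775.4 to 1013 and 1038. The 11 tested markers had a median log2 change of -0.96, and 5 were at least 2-fold lower (9.29% of all tested genes). Pcna was the most abundant on the whole list. Summed over that list, dividing-cell markers came to 1744 and 1645 FPKM in the scrambled libraries and 1582 and 1698 in those labelled knockdown. Their part in the change of the biogenesis factors was not tested.

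Longer genes had lower changes across the whole table, and the length of the factors was therefore set beside their changes. Using the longest annotated transcript (GENCODE M21), Spearman's rho between length and log2 change was -0.26 over the 63 factors and -0.41 over 8692 tested genes, across genes that share the same 4 libraries. The median longest transcript was 2923 bases for the tested factors and 2810 for tested genes. It was 3021 bases for factors called lower, 2488 for those called higher and 2753 for those that did not pass. With the trend of length removed in each library, 36 factors were lower and 8 were higher, and the median log2 change was -0.33. In that setting Imp3 did not pass (log2 0.21, limma adjusted p = 0.12), nor did Ncl, Rrp8 and Utp23, which were otherwise lower. Wdr12 and Utp25 were called higher (log2 0.09 each), as was Rrp7a (log2 0.28). Fbl, Polr1h, Polr1has and Tsr3, which otherwise did not pass, were called lower (log2 -0.53, -0.50, -0.28 and -0.23).

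**Figure D4:**
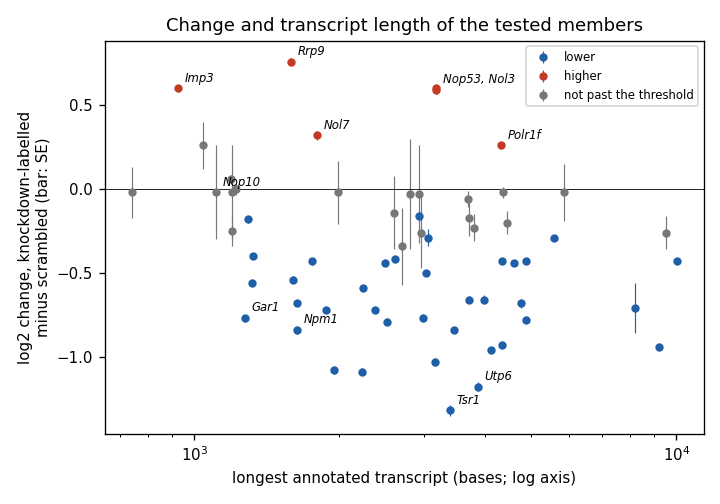
Log2 change of the 63 tested factors with its standard error against the length of the longest annotated transcript (bases, log axis). Rrp9 lies highest, followed by short Imp3 and, close to it, Nol3 and Nop53 at 3176 bases each. Tsr1 and Utp6 lie lowest, and factors called lower span from Gar1 at 1271 bases to Wdr12 at 10012.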

How the data were processed

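Polysome RNA of mouse ADSCs was analysed in 4 libraries, 2 per group. The FPKM values were computed and deposited by the authors. The submitters' processing notes name GRCm38, mm10 and GRCm39 with no role. No source used here names the aligner, counter or annotation. All 4 value columns were used.

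Genes with a mean of at least 1 FPKM were tested, 8750 of 18200, as log2(FPKM + 1) by limma (version 3.58.1, R 4.3.3) with trended empirical Bayes variances and group as the sole term. Two-sided p-values were Benjamini-Hochberg adjusted over all tested genes, with a threshold of 0.05. Fold changes are ratios of mean FPKM, and log2 changes understate the change of low genes. Factors and lists were chosen with earlier results of these data known. By rule every factor may be named, with the 5 largest changes each way of the other biogenesis genes, all tested regulators and the most abundant markers. Beyond the most abundant, markers were named after their values were seen.

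Replicate numbers coincide with the labels' batches, which pairs the libraries. Replicate differences in both groups correlated at -0.83 over 8750 tested genes, where shared batches would give a positive value. Whole fragments were recovered for 99.8% of tested genes as smallest whole numbers, up to a common divisor. Scripts were tested on simulated data. Tables were made with pandas 2.3.3 and numpy 2.4.6 under Python 3.11.15, and figures with matplotlib 3.10.9.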

Additional observations from a re-analysis of the deposited data

How the results depend on the processing

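Direction and call were kept by 31 of the 37 factors called lower and 5 of the 6 called higher under each alternative chosen at the outset that tested them. Of the 20 factors that did not pass, 14 passed under none of these, and only 2 of the 14 kept the sign of their change. The median log2 change of the factors was -0.38 with no filter, -0.25 after centring each library on its median (which moved the median of all tested genes from -0.02 to 0.15), -0.29 after quantile normalization and -0.33 with the length trend removed. After centring, Utp23 turned to 0.02 and Polr1has to 0.17. With the length trend removed, Rrp7a turned to 0.28, Tsr3 to -0.23, and Wdr12 and Utp25 to 0.09 each. The longest transcript is a crude length, 10012 bases for Wdr12 and 5570 for Utp25. No filter gave 3819 higher genes in all, and a mean of at least 5 FPKM gave 2213 lower and 1583 higher, since other numbers of genes were tested. Leaving out 1 library in turn gave 5 to 9 higher genes among the other biogenesis genes. With batch as a replicate block, 34 factors were lower and 6 higher, and Ncl, Rrp8 and Utp23 were the calls lost. The crossed replicate block (scrambled 1 with knockdown 2, scrambled 2 with knockdown 1), added after the data were seen, gave 46 lower and 8 higher factors, and 4282 lower and 2962 higher genes in all. Standard errors held at or above the counting error gave the same 37 and 6 factors. Where no value is given beside a change, the cause was not tested.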
